A study of Mus musculus with 31 samples.

Results

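The dual-specificity MAPK phosphatases are enzymes that remove phosphate from both the threonine and the tyrosine of an activated MAP kinase and so switch it off. The 10 genes considered here were Dusp1, Dusp2, Dusp4, Dusp5, Dusp6, Dusp7, Dusp8, Dusp10, Dusp14 and Dusp16, and the members were all probes annotated with exactly 1 of these symbols. Of the 10 genes, 6 had a probe (Dusp1, Dusp2, Dusp6, Dusp8, Dusp14 and Dusp16) and 4 had none (Dusp4, Dusp5, Dusp7 and Dusp10), so the latter were not measured. The 6 genes had 9 probes among the 13872 probes of the array, and 2 of the 9, both for Dusp8, had enough values for the test across all probes.

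In macrophages, bacterial lipopolysaccharide (LPS) binds Toll-like receptor 4, and the adaptor MyD88 carries 1 branch of the signal to the MAP kinases ERK, JNK and p38 and to NF-kB; the adaptor TRIF carries the other. Several of these phosphatase genes are known as immediate early genes that MAP kinase signalling itself induces, which makes them negative feedback regulators. Dusp1 is the best known of them in macrophages, where loss of the gene prolongs p38 and JNK activity and raises cytokine output.

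Bone-marrow cells of C57BL/6J mice, either wild-type or deficient in MyD88 (MyD88-/-) and aged 6 to 8 weeks, were grown into macrophages for 8 days in medium with 15% L929 conditioned medium, which supplies the growth factor CSF-1. The cells were then treated for 2 h with re-purified LPS of E. coli O111 at 10 ng/mL, with live log-phase E. coli at 1 bacterium per macrophage, or with medium alone (mock). Each array held a stimulated sample in 1 dye and the mock sample of the same mouse in the other, which gave 4 groups of 4 mice, each genotype under LPS and each under E. coli. The labels name no separate control line and do not say whether the mice were littermates.

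A deposited value is the log2 ratio of the channels of an array, on which 1 unit stands for a 2-fold ratio. The reading of the ratio as stimulated over mock is likely, from the sample titles and the rise of well-known LPS genes, but the labels do not state it. Of the 31 arrays 16 had 1 dye orientation (unswapped) and 15 the other (dye-swapped). Where a mouse had both orientations under a stimulus, their mean was its value. Their number limits the precision, since a group holds 4 mice at most. Between 5564 and 10497 probes had a value on an array. Of the 9 macrophage marker symbols listed, which include Emr1 as an older name of Adgre1, 7 were on the array. Csf1r, Adgre1, Cd68, Lyz2 and Fcgr1 had a value on 30 or 31 arrays, Mertk on 18 and Cd14 on 9. Markers of other cells also gave values, on 0 (Cd3e) to 25 (Cd4) arrays for T cells, 8 to 27 for B cells, 7 to 30 for neutrophils, 7 to 29 for dendritic cells, 4 to 12 for stromal and 12 to 23 for erythroid cells. Their part in the results was not tested. A ratio to mock does not measure the level of a gene in either sample, nor can it tell fewer cells of a type from less RNA per cell.

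Coverage differed widely among the phosphatase probes. The Dusp8 probes had a value on 28 and 22 of the 31 arrays, against a median of 20 over all probes. Dusp14 had a value on 15 arrays at probe 8340 and on 2 at probe 7307, and Dusp2 on 13 at probe 1594 and on 6 at probe 10730. Dusp16 was measured on 7 arrays, Dusp6 on 6 and Dusp1 on 5. For Dusp1 only 8.36% of all probes had values on fewer arrays. Each array carried between 1 and 6 of the 9 probes. A probe was tested where each group had values of 3 mice or more, which held for 7325 of 13872 probes (52.8%).

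**Figure D1:**
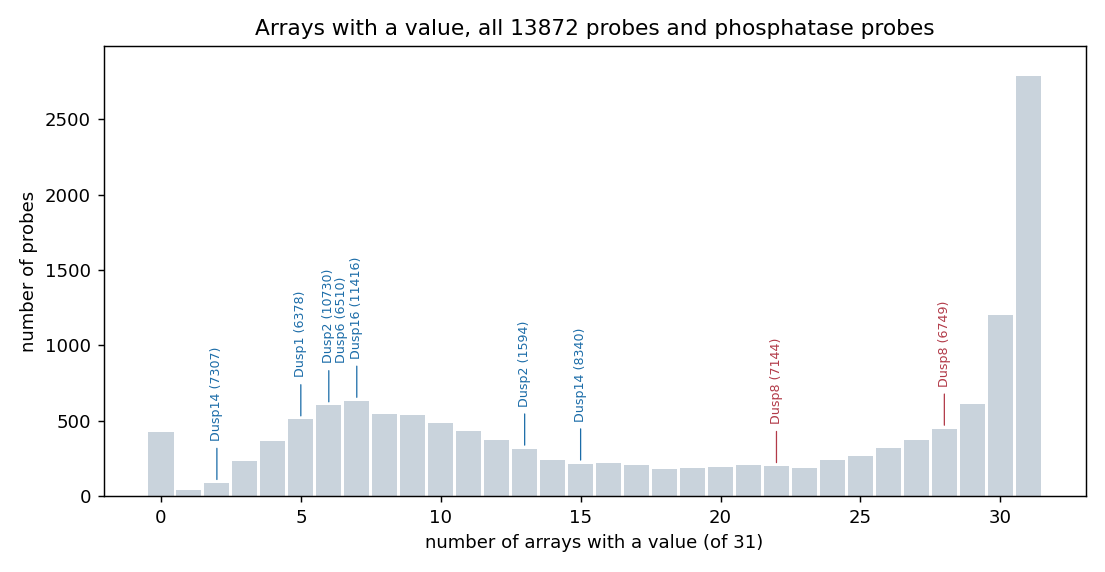
Bars give the number of probes (vertical axis) by the number of arrays with a value (horizontal axis, 0 to 31). Lines and labels mark the 9 phosphatase probes, in red the 2 tested Dusp8 probes at 28 and 22 arrays and in blue the 7 others, at 2 to 15 arrays.

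Agreement between the dyes was also uneven. Of the 29 cases in which both arrays of a mouse and stimulus had a value of a phosphatase probe, 14 had the same sign. These cases include probes too sparse for the test. Over the tested probes of the array 61.8% of such pairs had the same sign. The tested Dusp8 probes had 6 of 12 such pairs at probe 6749 and 5 of 7 at probe 7144. The median absolute difference between the dyes was 0.52 and 0.41 for the Dusp8 probes 6749 and 7144, near the 0.44 of all tested probes. It was 1.14 for Dusp14 probe 8340, 1.87 for Dusp16 and 4.76 for Dusp2 probe 1594. All 4 pairs of Dusp1 and Dusp2 together had opposite signs, positive on the dye-swapped and negative on the unswapped array. Dusp6 had values on unswapped arrays only.

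**Figure D2:**
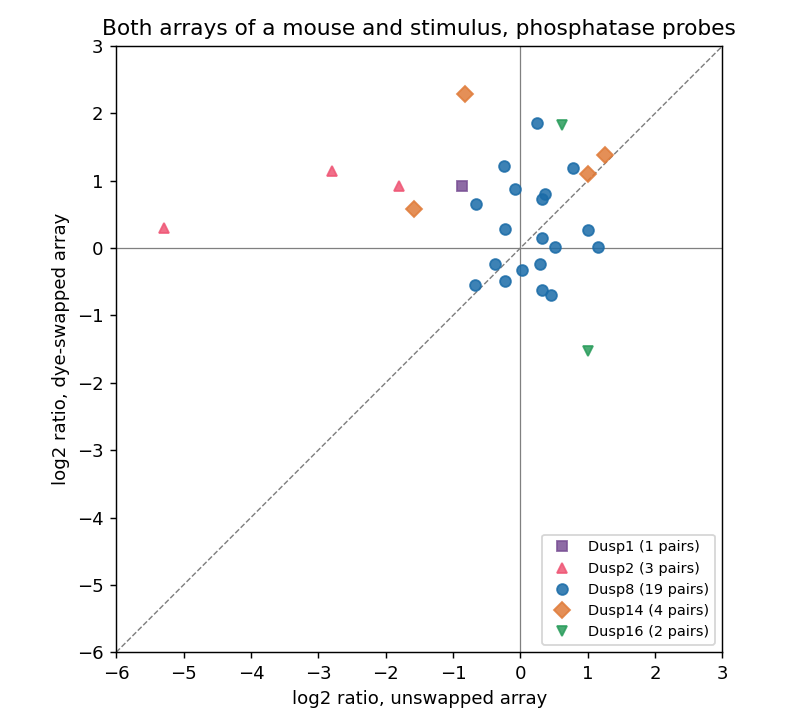
Each point is 1 phosphatase probe in 1 mouse and stimulus, with the log2 ratio on the unswapped array (horizontal) against that on the dye-swapped array (vertical); the dashed line marks equal values. The 19 Dusp8 pairs gather around 0, and the 3 Dusp2 pairs and the Dusp1 pair lie in the upper left, where the dyes have opposite signs.

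A further property of the values bears on the sparse probes. Some deposited ratios, taken back from the log2 scale, were whole multiples of 0.1 (within 1e-05 of the ratio). These made up 5.06% of the 261088 values of all probes, 21% of the values of probes on 1 to 7 arrays and 0.312% of those of probes on 30 or 31 arrays. Nearly all of them lay above a ratio of 1 (12393 of 13198). Among the phosphatases 14 of 104 values were of this kind (13.5%), with 0 on the Dusp8 probes, 5 of 15 on Dusp14 probe 8340 and 3 of 6 on Dusp6. The labels do not say how such values came about.

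Dusp8 encodes a phosphatase known to act on JNK and p38, and it was the only member measured well enough for the main test. It lies on chromosome 7 (142079487 to 142095907, mouse build GRCm38.p6). The position of the probes within the gene was not analysed here. The RefSeq window from 250 bases before to 50 after its start site is shown because Dusp8 is the tested member and because the window carries the cAMP response element, TGACGTCA, at 2 places, -107 and -63 relative to the start site (capitals). The window is chr7:142095235-142095534, minus strand, GRCm38.p6. Its start site lies 623 bases inside the outer end of the gene, so it is not that of the outermost annotated transcript.
Dusp8: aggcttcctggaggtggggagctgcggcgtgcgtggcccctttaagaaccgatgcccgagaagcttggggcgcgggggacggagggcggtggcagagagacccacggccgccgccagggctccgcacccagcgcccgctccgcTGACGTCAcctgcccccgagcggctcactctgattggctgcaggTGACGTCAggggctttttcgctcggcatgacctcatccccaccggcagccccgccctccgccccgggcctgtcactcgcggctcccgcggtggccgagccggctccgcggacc

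The element occurred in 588 of 32851 windows of the same length on either strand, or 1.79%. The window of Dusp1 also held it, at -143. The other letters searched, on both strands, were AP-1 (TGANTCA, 7.81% of windows), EGR (GCGNGGGCG, 5.55%), TATAAA (13.6%), the kappaB consensus (8.46%) and the CArG box of SRF (1.63%). None of these was found in the Dusp8 window. Dusp2 and Dusp16 each held 1 EGR match, and the Dusp6 window held none of the letters searched. The start site of the Dusp16 window lies 14435 bases inside the outer end of that gene. A match is a description of the letters and not evidence of binding.

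At probe 6749 the Dusp8 ratio in wild-type mice given LPS was 0.58, 1.06, 0.40 and 0.03 in mice 1 to 4, a mean of 0.52 ± 0.43 (SD, n = 4). All 4 values lay above 0, although mouse 4 was close to it. In MyD88-/- mice given LPS the values were -0.15, 0.03, -0.01 and 0.64, with a mean of 0.13 ± 0.35 (SD, n = 4). The MyD88-/- mice 1 to 3 were near 0 and mouse 4, which had a single array, was as high as the wild-type mice, so that the genotypes overlapped.

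Under E. coli the same probe read 0.59, -0.15, -0.22 and 0.98 in wild-type mice (mean 0.30 ± 0.58, SD, n = 4). It read 0.39, -0.31, 0.64 and 0.27 in MyD88-/- mice (mean 0.25 ± 0.40, SD, n = 4). Both groups held values on either side of 0 and covered much the same range.

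Dusp8 was not called in any group at this probe. The fitted log2 ratio in wild-type LPS was 0.52 ± 0.22 (SE), with a 95% interval of 0.05 to 0.98, an unadjusted p of 0.0312 and an adjusted p of 0.125 in limma (Benjamini-Hochberg over all 7325 probes). This was the only 1 of the Dusp8 tests with an unadjusted p under 0.05. Of all tested probes 17.0% were called in wild-type LPS at an adjusted p under 0.05, 9.98% in MyD88-/- LPS, 21.2% in wild-type E. coli and 10.8% in MyD88-/- E. coli, against 0 of the 2 Dusp8 probes in each. The other fitted values were 0.13 (95% interval -0.34 to 0.59) in MyD88-/- LPS, 0.30 (-0.16 to 0.76) in wild-type E. coli and 0.25 (-0.21 to 0.71) in MyD88-/- E. coli, with limma adjusted p of 0.798, 0.37 and 0.571.

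The second Dusp8 probe, 7144, gave lower values. In wild-type LPS mice 1 to 4 read -0.60, 0.49, -0.12 and 0.63 (mean 0.10 ± 0.57, SD, n = 4), and in MyD88-/- LPS mice 1 to 3 read -0.37, 0.04 and -0.36 (mean -0.23 ± 0.24, SD, n = 3). Wild-type E. coli mice read -0.36, -0.42, 0.23 and 0.52 (mean -0.01 ± 0.46, SD, n = 4). In MyD88-/- E. coli all 4 mice were below 0, at -0.61, -0.32, -0.02 and -0.46 (mean -0.35 ± 0.25, SD, n = 4). None of the 4 group means was called, with limma adjusted p between 0.342 and 0.989. The fitted mean of MyD88-/- E. coli, -0.35, had a 95% interval of -0.79 to 0.09. Both probes had a value in 15 mouse and stimulus combinations and the same sign in 8 of them. Across these 15 values r was 0.28 and rho 0.17, a description only, since mice of 4 groups are pooled and both probes share their arrays.

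No genotype difference was called for Dusp8 by limma. At probe 6749 the MyD88-/- minus wild-type difference was -0.39 ± 0.31 (SE; 95% interval -1.04 to 0.27) under LPS and -0.05 (-0.71 to 0.60) under E. coli, with limma adjusted p of 0.745 and 0.972. At probe 7144 the differences were -0.33 ± 0.31 (SE) and -0.34 ± 0.29 (SE), with limma adjusted p of 0.784 and 0.653. The 2-sided exact permutation test over mice gave p = 0.257 and 0.857 at probe 6749 and p = 0.371 and 0.257 at probe 7144, where the smallest it can give is 0.0286. Over all probes 0.287% were called for the genotype difference under LPS and 0.751% under E. coli. At probe 6749 the intervals still allow a genotype difference larger than the wild-type LPS value of 0.52, down to -1.04 under LPS and -0.71 under E. coli.

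LPS and live bacteria were also set side by side within each genotype. The E. coli minus LPS difference at probe 6749 was -0.22 (95% interval -0.87 to 0.44) in wild-type and 0.12 (-0.53 to 0.78) in MyD88-/- macrophages, and at probe 7144 it was -0.11 (-0.73 to 0.51) and -0.12 (-0.79 to 0.55). The interaction of genotype and stimulus was 0.34 and -0.01 at the 2 probes. No Dusp8 value was called in these comparisons by limma, nor was any probe of the array: the share called was 0 in wild-type, 0 in MyD88-/- and 0 for the interaction. At an unadjusted p under 0.05 these comparisons held 297, 177 and 219 probes of 7325, and no Dusp8 probe.

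Among 4698 other probes with 1 gene symbol and all 16 mouse values, those most like Dusp8 probe 6749 over the 16 values were Prr32 (r = 0.86), Qtrt1 (r = 0.83) and Tgm1 (r = 0.82). The median r over the probes compared was 0.03. Those are the highest of many values across few mice that share arrays, and nothing on function is read from them.

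Dusp14 encodes a small phosphatase of this family that lacks the kinase-binding domain of the larger members. It lies on chromosome 11 (84048033 to 84069256, GRCm38.p6). Its RefSeq start-site window is shown because this gene had the highest ratios of the family in wild-type mice; it is chr11:84068308-84068607, minus strand, GRCm38.p6, and held none of the letters searched. Its start site lies 899 bases inside the outer end of the gene.
Dusp14: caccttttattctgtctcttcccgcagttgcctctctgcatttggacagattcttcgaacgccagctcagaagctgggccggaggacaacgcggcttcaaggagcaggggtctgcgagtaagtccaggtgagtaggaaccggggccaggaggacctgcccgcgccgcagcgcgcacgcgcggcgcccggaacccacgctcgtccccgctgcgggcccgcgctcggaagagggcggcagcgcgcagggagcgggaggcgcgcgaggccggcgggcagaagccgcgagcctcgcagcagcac

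At probe 8340 the wild-type LPS mice 2, 3 and 4 read 2.38, 1.32 and 2.06, a mean of 1.92 ± 0.54 (SD, n = 3). MyD88-/- LPS mice 1, 2 and 3 read -0.71, -0.42 and 1.05, a mean of -0.03 ± 0.94 (SD, n = 3). All wild-type values lay above all MyD88-/- values, the nearest being wild-type mouse 3 and MyD88-/- mouse 3. Under E. coli the wild-type mice 1, 3 and 4 read 3.14, 1.98 and 0.74 (mean 1.95 ± 1.20, SD, n = 3), and the MyD88-/- mice 1 and 4 read 0.32 and -0.50 (mean -0.09, n = 2). The E. coli groups did not overlap either, but of the 349 probes with 3 wild-type and 2 MyD88-/- mice 21.5% did not overlap. Wild-type mouse 4 was the lowest of its group. In that mouse the arrays read 2.29 (dye-swapped) and -0.82 (unswapped), and in MyD88-/- mouse 4 they read 0.57 and -1.58.

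Because a group had fewer than 3 mice, Dusp14 missed the main test. The exact permutation test of the genotypes under LPS, a difference of -1.95 on the log2 scale, gave a 2-sided p = 0.1, the smallest that 3 mice against 3 can give. Non-overlap of the genotypes under LPS was found for 8.84% of the 769 probes with 3 mice in each. LPS and E. coli values of the wild-type mice differed by 0.03 (exact permutation p = 1, n = 3 and 3).

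With a looser filter of 2 mice per group, which tests 8923 probes and 4 of the phosphatase probes, limma called Dusp14 in wild-type LPS at 1.92 ± 0.46 (SE; adjusted p 0.0226) and in wild-type E. coli at 1.95 ± 0.46 (adjusted p 0.0173). In that fit 12.9% and 16.2% of probes were called in these responses. In MyD88-/- macrophages the limma adjusted p were 0.988 (LPS) and 0.958 (E. coli). The genotype differences were -1.95 ± 0.65 under LPS and -2.05 ± 0.73 under E. coli and were not called, with limma adjusted p of 0.45 and 0.304, where 0.235% and 0.527% of probes were called. A response called in wild-type and not in MyD88-/- mice therefore does not show that the genotypes differ.

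Under the looser filter the Dusp14 calls were kept by some fits and lost in others. They held with each array centred (limma adjusted p 0.0226 in wild-type LPS and 0.0159 in wild-type E. coli). With arrays in place of mouse means and a dye term they also held (0.0412 and 0.0328). Both held when 1 mouse of the MyD88-/- LPS group or of the other wild-type group was left out. Without wild-type LPS mouse 2 the LPS value was 1.69 (limma adjusted p 0.124), without mouse 4 it was 1.85 (0.093) and without mouse 3 it was 2.22 and still called (0.0433). Without wild-type E. coli mouse 1 the E. coli value was 1.36 (limma adjusted p 0.12), without mouse 3 it was 1.94 (0.0718) and without mouse 4 it was 2.56 and still called (0.00876). Each such fit has fewer mice. When only the compared group was fitted, the limma adjusted p were 0.052 and 0.0961, with 4.02% and 6.81% of probes called. Of the 5 Dusp14 ratios that were whole multiples of 0.1, 4 came from wild-type mice: 5.2 (LPS mouse 2), 2.6 (LPS mouse 3, dye-swapped), 8.8 (E. coli mouse 1) and 4.9 (E. coli mouse 4, dye-swapped). The other was 2 in MyD88-/- LPS mouse 3, unswapped. With such ratios taken as missing, the wild-type LPS value was 1.66 (2 mice, 1.26 and 2.06; limma adjusted p 0.16) and the wild-type E. coli value 0.58 (2 mice, -0.82 and 1.98; limma adjusted p 0.642).

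The second Dusp14 probe, 7307, had values in MyD88-/- E. coli mice 1 and 4 only, at 0.37 and 0.55. In mouse 4 probe 8340 read -0.50. No wild-type value of probe 7307 exists here, so it cannot be set against the wild-type values of probe 8340.

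**Figure D3:**
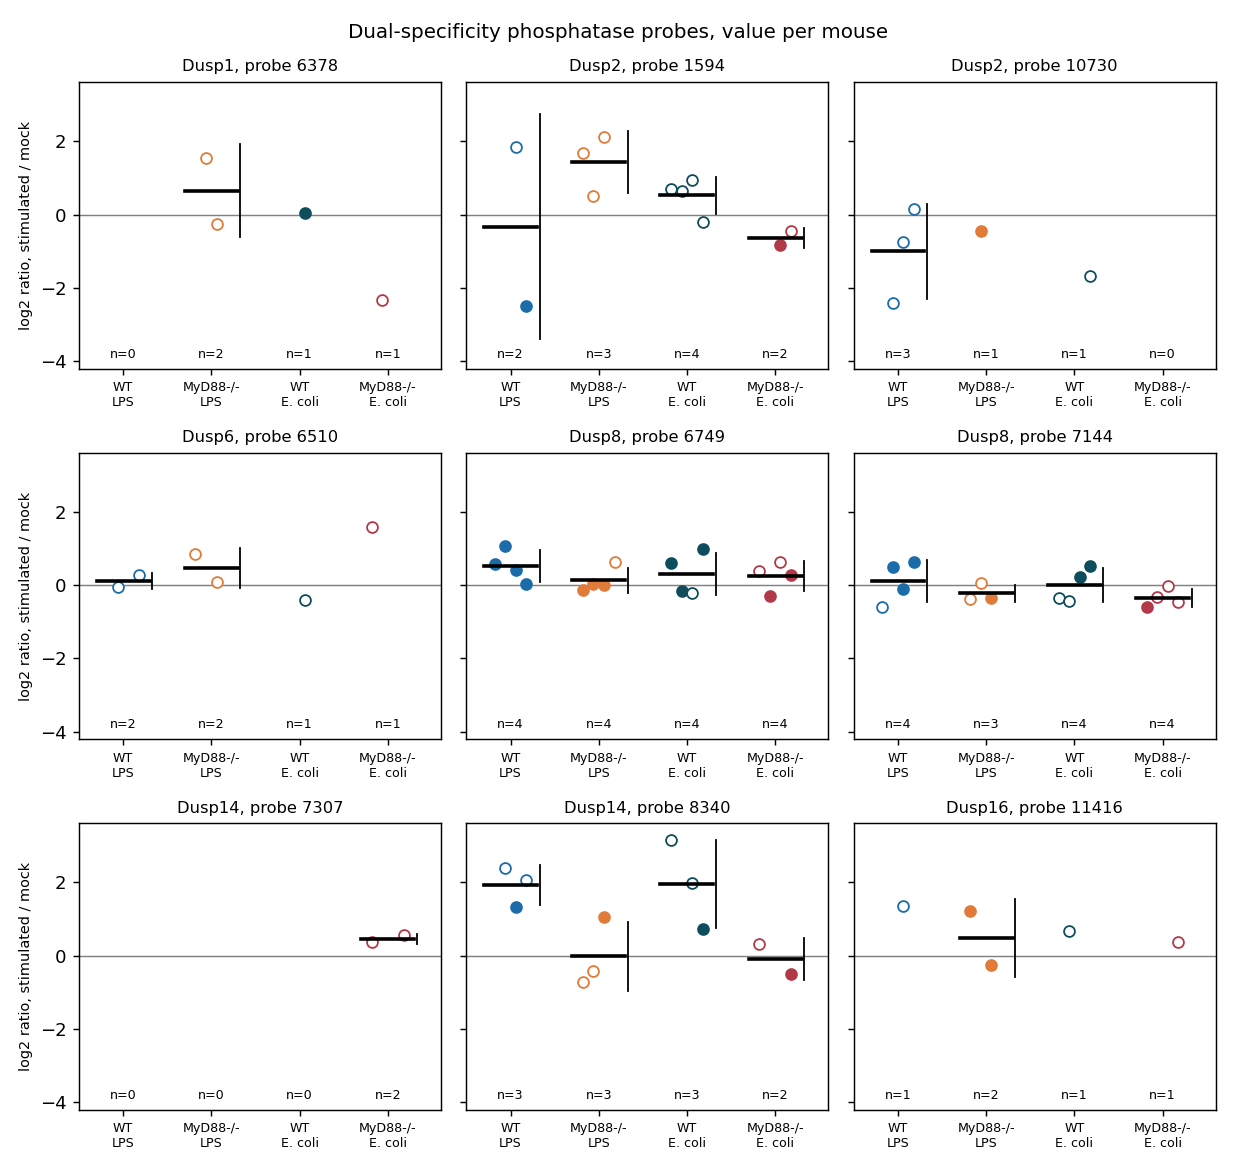
Each panel is 1 phosphatase probe, with the log2 ratio of stimulated over mock (vertical axis) per mouse in the 4 groups (horizontal axis); filled points are means of a dye pair, open points are single arrays, horizontal lines are group means and vertical lines are SD. At Dusp14 probe 8340 the mean under LPS is 1.92 in wild-type and -0.03 in MyD88-/- mice (n = 3 each). Its genotype differences were not called with the filter of 2 mice per group. The Dusp8 probes lie near 0, and the other probes have 0 to 4 mice per group.

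Dusp2 encodes a nuclear phosphatase of immune cells that acts mainly on ERK. It lies on chromosome 2 (127336159 to 127338377). At probe 1594 the wild-type E. coli mice read 0.71, 0.65, 0.94 and -0.21 (mean 0.52 ± 0.50, SD, n = 4), and MyD88-/- LPS mice 1 to 3 read 1.69, 0.50 and 2.10 (mean 1.43 ± 0.83, SD, n = 3). Wild-type LPS mice 3 and 4 read 1.84 and -2.49, and MyD88-/- E. coli mice 3 and 4 read -0.83 and -0.44. The wild-type LPS values point opposite ways, and in mouse 4 the arrays themselves read 0.30 and -5.29. With the filter of 2 mice per group the limma adjusted p of the responses to LPS were 0.852 in wild-type and 0.276 in MyD88-/- mice, and those to E. coli 0.628 and 0.754.

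The other Dusp2 probe, 10730, read -2.40, -0.75 and 0.14 in wild-type LPS mice 2 to 4, all on unswapped arrays. It read -0.44 in MyD88-/- LPS mouse 2 and -1.67 in wild-type E. coli mouse 4, and had no value in MyD88-/- E. coli. In wild-type LPS mouse 3 the probes went opposite ways, 1.84 at probe 1594 and -0.75 at probe 10730. The MyD88-/- mice were all above 0 under LPS and all below it under E. coli at probe 1594, a pattern that 6.40% of the 531 probes with 3 and 2 such mice showed in either direction. The data give no settled direction for Dusp2 in any group.

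Dusp1, on chromosome 17 (26505591 to 26508472), encodes a nuclear phosphatase that acts on p38 and JNK. It had no value in wild-type LPS, the group in which its response is best known. It read 1.54 and -0.24 in MyD88-/- LPS mice 2 and 3, 0.03 in wild-type E. coli mouse 3 (0.93 dye-swapped and -0.86 unswapped) and -2.33 in MyD88-/- E. coli mouse 2. These 4 mice spread from -2.33 to 1.54, and no group had more than 2 of them.

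Dusp6, on chromosome 10 (99263231 to 99267489), encodes a cytoplasmic phosphatase that is selective for ERK. Wild-type LPS mice 2 and 4 read -0.05 and 0.26, and MyD88-/- LPS mice 1 and 3 read 0.85 and 0.09. Wild-type E. coli mouse 3 read -0.42 and MyD88-/- E. coli mouse 1 read 1.58. The highest of the 6 values was a ratio of 3, 1 of the 3 Dusp6 ratios that were multiples of 0.1. With a filter of 1 mouse per group the lowest limma adjusted p of the 4 Dusp6 responses was 0.194.

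Dusp16, on chromosome 6 (134715468 to 134807063), encodes a phosphatase that acts mainly on JNK. It read 1.34 in wild-type LPS mouse 3, 0.68 in wild-type E. coli mouse 2 and 0.38 in MyD88-/- E. coli mouse 4. MyD88-/- LPS mice 1 and 3 read 1.23 and -0.26. Of the 5 mice 4 were above 0, but in MyD88-/- LPS mouse 3 the arrays read -1.53 and 1.00. Limma adjusted p with a filter of 1 mouse per group lay between 0.421 and 0.877 over the 4 Dusp16 responses.

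Genes around the phosphatases in the MAP kinase pathway were counted from 5 lists. The MAP kinase cascade had 39 genes listed, 30 on the array and 24 tested. In wild-type LPS 3 were higher and 1 lower, in MyD88-/- LPS 2 and 0, in wild-type E. coli 3 and 1, and in MyD88-/- E. coli 3 and 0, with list medians of 0.02, 0.07, -0.02 and 0.19 against medians of all tested probes of -0.05, -0.05, -0.06 and -0.05. These calls were 16.7%, 8.33%, 16.7% and 12.5% of the list, near or below the 17.0%, 9.98%, 21.2% and 10.8% of all tested probes except for a slightly higher share in MyD88-/- E. coli. Mapk6, an atypical MAP kinase, rose in all 4 groups at the probe used, by 0.92, 0.77, 0.95 and 0.70 in the order just given (limma adjusted p 7.51e-05 to 0.00122). Its second probe read 1.06, 1.20, 1.86 and 0.22. With the compared groups alone the Mapk6 call was lost in wild-type LPS, MyD88-/- LPS and MyD88-/- E. coli (limma adjusted p 0.0517, 0.0655 and 0.0863). On unswapped arrays alone it was lost in MyD88-/- E. coli (0.0635). Tab2, an adaptor of the kinase TAK1, rose by 0.90, 0.62, 0.84 and 0.97, in the same order. The Tab2 call in MyD88-/- LPS was lost without mouse 3 (0.55, limma adjusted p 0.0694) or mouse 4 (0.59, 0.0559), and on dye-swapped arrays alone the value was 0.24 (0.779). Mapk12, a p38 kinase, rose by 0.76 in wild-type E. coli. Map3k4, a kinase upstream of p38 and JNK, fell by 1.04 in wild-type LPS, a call that was lost without wild-type LPS mouse 1 (adjusted p 0.144) or mouse 2 (0.0678). Map3k5, known as ASK1, rose by 0.90 in MyD88-/- E. coli, but with ratios at multiples of 0.1 missing the value was 0.45 (limma adjusted p 0.363), and the call was lost without mouse 1, 2 or 3 (0.0766, 0.187 and 0.185).

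Of kinases downstream of the MAP kinases, 10 were listed, 4 were on the array and 3 were tested, with 1 higher and 1 lower in each of the 4 groups (66.7% of only 3 genes). Of all tested probes 17.0% were called in wild-type LPS, 9.98% in MyD88-/- LPS, 21.2% in wild-type E. coli and 10.8% in MyD88-/- E. coli. Mapkapk2, a p38 target that stabilises cytokine mRNA, rose by 1.38 in wild-type and 1.10 in MyD88-/- LPS, and by 1.03 in wild-type and 1.34 in MyD88-/- E. coli. Mknk2, which phosphorylates the translation factor eIF4E, fell in the same groups, with values of -1.50, -1.02, -1.17 and -1.22 (limma adjusted p 0.000126 to 0.00487). The Mapkapk2 call was lost in MyD88-/- LPS without mouse 3 (adjusted p 0.0551) and in wild-type E. coli without mouse 2 (0.0669) or mouse 3 (0.0549).

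The next list holds transcription factors that MAP kinases activate or induce. Of 21 listed and 15 tested, 5 were higher and 1 lower in wild-type LPS, 4 and 1 in MyD88-/- LPS, 7 and 3 in wild-type E. coli and 5 and 2 in MyD88-/- E. coli, with list medians of 0.38, 0.20, 0.62 and 0.14. The calls were 40%, 33.3%, 66.7% and 46.7% of the list, each above the share of all tested probes. The list was chosen with earlier results of these data known, so its shares, here and below, are a description and not a test. Egr2 rose by 3.82, 3.27, 5.02 and 2.98 in the same order, and Junb, an AP-1 subunit, by 2.03, 1.34, 2.36 and 1.30. Jun, its relative, fell, with values of -2.57, -1.72, -2.11 and -1.99. Creb1, whose protein binds the element found in the Dusp8 window, rose by 0.91 in MyD88-/- LPS and 0.80 in MyD88-/- E. coli (limma adjusted p 0.00165 and 0.00442). It read 0.34 and 0.26 in the wild-type groups, not called, and its genotype differences were not called. The MyD88-/- LPS call was lost on dye-swapped arrays alone (0.88, limma adjusted p 0.0611). At its second probe Creb1 read 1.16 in wild-type LPS and 0.51 in MyD88-/- LPS, the other order. Under E. coli that probe read 0.74 in wild-type and 0.97 in MyD88-/- mice. The E. coli genotype difference was called for 2 genes of this list (13.3%, against 0.751% of all tested probes). Junb was lower in MyD88-/- by 1.06 ± 0.18 (SE; difference -1.06, limma adjusted p 0.00745), a call that was lost on unswapped arrays alone (adjusted p 0.148), with each array centred and scaled (0.0706) and with the compared groups alone (0.105). Myc was at 2.26 in wild-type and lower in MyD88-/- E. coli, a difference of -2.86 (limma adjusted p 0.0405). The Myc call was lost in 17 alternatives, among them leaving out any 1 of mice 1, 3 and 4 of the wild-type E. coli group, or of mice 1, 2 and 3 of the MyD88-/- group (limma adjusted p 0.0875 to 0.116). The LPS genotype difference was called for 0 genes of the 5 lists by limma, and for 0.287% of all tested probes.

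Other feedback inhibitors and phosphatases of the pathway had 17 genes listed, 13 on the array and 8 tested. In wild-type LPS 2 were higher and 0 lower, in MyD88-/- LPS 1 and 0, in wild-type E. coli 2 and 1, and in MyD88-/- E. coli 1 and 0, or 25%, 12.5%, 37.5% and 12.5% of the list. Of all tested probes 17.0%, 9.98%, 21.2% and 10.8% were called in these groups, and 12.5% of this list is 1 gene. Zfp36, which encodes the mRNA-destabilising protein tristetraprolin, rose in the 4 groups by 0.88, 0.76, 1.56 and 0.69. Its call was lost in MyD88-/- LPS without mouse 1 (limma adjusted p 0.0711) and in MyD88-/- E. coli without mouse 1 (0.0723) or mouse 2 (0.127), and in both groups on dye-swapped arrays alone (0.47 and 0.44, 0.465 and 0.288). Rasa2, a Ras GTPase-activating protein, rose by 1.47 and 1.53 in wild-type LPS and wild-type E. coli. On dye-swapped arrays alone Rasa2 read 0.86 and 1.00 and was not called (limma adjusted p 0.388 and 0.326), and with the compared groups alone the wild-type LPS call was lost at an unchanged value (0.173). Ppp2r1a, the scaffold subunit of phosphatase 2A, fell by 0.59 in wild-type E. coli (limma adjusted p 0.0333), a call lost without mouse 1 (0.225), mouse 2 (0.054) or mouse 4 (0.0685).

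Of 15 other dual-specificity phosphatase genes, which are mostly atypical small enzymes outside the MAP kinase phosphatase group, 8 were on the array and 5 were tested. In wild-type LPS 0 were higher and 1 lower (20% of only 5 genes), and in the other 3 groups none was called by limma. Shares over all tested probes were 17.0% in wild-type LPS, 9.98% in MyD88-/- LPS, 21.2% in wild-type E. coli and 10.8% in MyD88-/- E. coli. Counts out of 5 genes are too few to set apart from these shares. Dusp3, which acts on ERK and JNK, fell by 0.46 ± 0.14 (SE) in wild-type LPS (limma adjusted p 0.031), where mice ranged from -0.67 to -0.35. Its values were -0.27 in MyD88-/- LPS, -0.37 in wild-type E. coli and 0.01 in MyD88-/- E. coli and were not called. The Dusp3 call was lost without any 1 of the 4 wild-type LPS mice (adjusted p 0.0647, 0.146, 0.0705 and 0.0694 without mice 1 to 4) and with each array centred (0.0515).

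**Figure D4:**
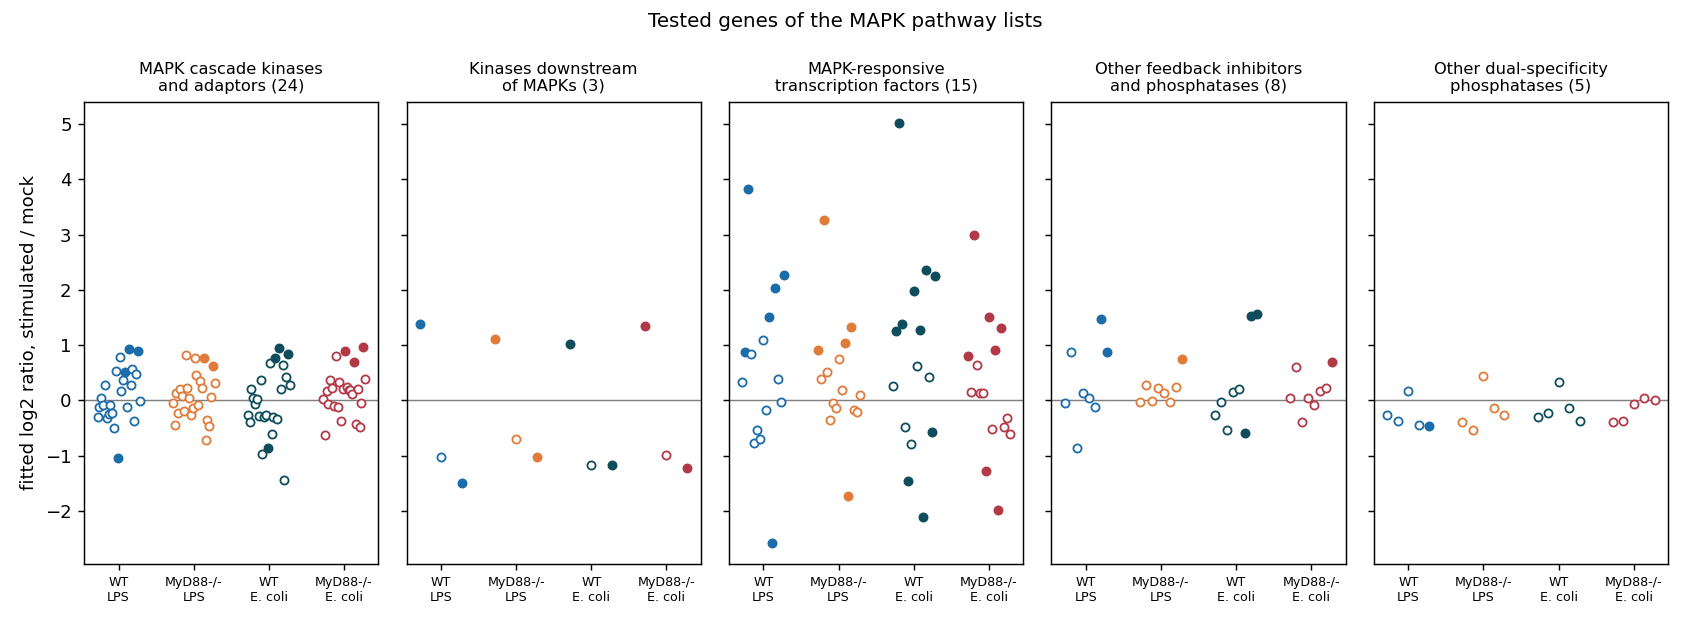
Each point is 1 tested gene of a MAP kinase pathway list, with its fitted log2 ratio of stimulated over mock (vertical axis) in the 4 groups (horizontal axis); filled points have an adjusted p under 0.05. Egr2 stands highest in the transcription factor panel (5.02 in wild-type E. coli), while the 5 other dual-specificity phosphatases hold 1 called value, Dusp3 at -0.46 in wild-type LPS.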

How the data were processed

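The authors scanned the spotted arrays with a GenePix 4000B scanner, quantified the images in GenePix Pro 3.0 and used BASE and GeneSpring for analysis, per the labels. What the authors deposited is a log2 ratio per probe and array; the background correction, normalization, spot filter and direction of the ratio are not given in the sources used here. Values at log2(0.01), -6.64, were taken as missing (0 of them on the phosphatase probes). The 31 columns were mapped to samples by the labels, with 0 left over. Symbols came from the platform's probe-gene table and coordinates and windows from RefSeq (GRCm38.p6).

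Dye orientations of 1 mouse and stimulus were averaged (16 values). Probes with at least 3 mice in every group were fitted together in limma 3.58.1 (R 4.3.3; lmFit with 1 coefficient per group, eBayes, prior degrees of freedom 2.97), with Benjamini-Hochberg adjustment over all 7325 probes and a call at an adjusted p under 0.05. All p are 2-sided. The script was tested on simulated data. The p-values set a mean or difference against the variation among mouse values, some of which rest on a single array. The fit with a dye term took arrays as units instead.

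All phosphatase probes are named; from each list at most 3 called genes of smallest p are named per comparison, and where a gene has several probes, the 1 on most arrays stands for it. The members and lists were chosen with earlier results of these data known. Mouse numbers 1 to 4 recur under both stimuli; the labels do not say that they mark the same animal, and deviations of same-numbered samples correlated between -0.0568 and 0.142, so they were not treated as pairs. Alternatives were the floor, centring, scaling, the filter, the groups fitted, each dye orientation, a dye term, a replicate block and leaving out each mouse. Setting ratios at multiples of 0.1 missing was added after the values were seen. So were 3 kinds of Dusp14 fit under the filter of 2 mice per group: leaving out each mouse with a value (11 fits), centring, and a dye term. Figures were drawn with matplotlib 3.10.9.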

Additional observations from a re-analysis of the deposited data

Results flagged for a closer look

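At Dusp2 probe 1594, all 3 MyD88-/- LPS mice read above 0 (0.50 to 2.10) and both MyD88-/- E. coli mice below it (-0.83 and -0.44), as did 6.40% of the 531 probes with these numbers of mice, in either direction. Neither response was called with the filter of 2 mice per group (limma adjusted p 0.276 and 0.754). The E. coli minus LPS difference was -2.06 on the log2 scale. The probe had too few mice for the main test, so the difference was not tested there; with the filter of 2 mice per group it was -2.06 ± 1.03 (SE) with a limma adjusted p of 1. In E. coli mouse 3 the dye-swapped array read 1.14, a ratio at a multiple of 0.1, and the unswapped array -2.79. No phosphatase probe with 4 mice in a group had a mouse that stood apart by Dixon's criterion.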

How the results depend on the processing

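The number of phosphatase probes called was 0 in each of the 9 comparisons and stayed 0 under every alternative run except the looser filters. With a filter of 2 mice per group, and with 1 mouse per group, it was 1 in wild-type LPS and 1 in wild-type E. coli, in both cases Dusp14 probe 8340, since the looser filter admits that probe to the test. Leaving out each mouse in turn gave 0 to 0 calls in each comparison. Outside the looser filters these counts rest on few probes. The main fit tested the 2 Dusp8 probes, either dye orientation alone tested 1 probe, and the compared groups alone tested 2 to 4. The replicate block, with mouse number within genotype and an estimated correlation of 0.0116, gave 0 calls in the stimulus differences and the interaction. Over 436 Dusp8 values under alternatives, 0 were called and 27 turned sign; the lowest limma adjusted p was 0.083 (probe 6749, wild-type LPS, where the value ranged from 0.27 to 0.76). Of 41 calls of the named list genes, 17 were lost when only the compared groups were fitted, which leaves fewer mice to estimate the spread, 12 on dye-swapped arrays alone, 10 without at least 1 mouse, 5 on unswapped arrays alone, 5 with a filter of 1 mouse and 2 with one of 2 mice, 4 with each array centred and scaled and 1 centred only, 2 with the floor kept and 1 with a dye term. The causes of these shifts were not tested. Depth is unknown, as the files give ratios without intensities, and of the 9 phosphatase probes all but 2 missed the main test for lack of values.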

Other observations

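The ratios at multiples of 0.1 were not spread evenly over what the lists reported. Of the named list genes, Junb, Jun, Mapk6, Tab2, Mapkapk2, Mknk2, Zfp36 and Dusp3 had 0 such values. Egr2 and Rasa2 had 2 each and Myc had 1, and their calls held when these values were taken as missing, with a fitted Egr2 value of 4.99 in wild-type E. coli, a Rasa2 value of 1.53 in wild-type E. coli and 1.11 (from 1.47) in wild-type LPS, and a Myc genotype difference of -2.86 (limma adjusted p 0.0138). Map3k5 had 4 and lost its call.

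A second probe was on the array for 2 of the named list genes. Mapk6 probe 12367 read 1.06, 1.20, 1.86 and 0.22 in wild-type and MyD88-/- LPS and then wild-type and MyD88-/- E. coli, further from one another than at the probe used. Creb1 probe 7523 read 1.16, 0.51, 0.74 and 0.97, so the group in which Creb1 stood highest differed between its probes.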
